A study of Mus musculus with 4 samples.

Results

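This account concerns 9 genes of heme biosynthesis and iron uptake, *Alas1*, *Alas2*, *Alad*, *Uros*, *Urod*, *Cpox*, *Ppox*, *Fech* and *Tfrc*, in mouse LSK cells with and without *Bptf*. They were taken by symbol from the deposited table of 18598 genes, and all 9 were listed. LSK cells are the lineage-negative, SCA-1+ and c-KIT+ fraction of bone marrow that contains hematopoietic stem and progenitor cells. The study sorted them from C57BL/6 mice of about 3 months, 10 days after cre induction, and sequenced their RNA in 4 libraries, each from the pooled marrow of 5 mice. The groups are the *Bptf* cKO (genotype *Bptf* -/-; *Bptf* f/f with *Mx1*-cre, 2 libraries) and control littermates with *Bptf* f/f alone (2 libraries), and both groups received pIpC, the double-stranded RNA analog that induces *Mx1*-cre. *Mx1*-cre is driven by an interferon-responsive promoter and is not restricted to stem cells. The controls carried no cre, so loss of *Bptf* and presence of cre cannot be told apart, and pooling hides the spread between mice.

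Heme is an iron-containing porphyrin that serves as the cofactor of hemoglobin, cytochromes and catalase, so that every cell makes some and erythroid cells make most of it. Its synthesis starts and ends in mitochondria. ALAS condenses glycine with succinyl-CoA, ALAD, UROS and UROD help to build and trim the porphyrin ring in the cytosol, and CPOX, PPOX and FECH oxidize it and insert iron. The ALAS step exists as a housekeeping form, ALAS1, which heme represses, and an erythroid form, ALAS2. Iron enters through the transferrin receptor TFRC, whose mRNA is protected from decay in iron-poor cells by iron regulatory proteins that bind hairpins called iron-responsive elements in its 3′ UTR. The same proteins bind a hairpin in the 5′ UTR of *Alas2* and block its translation, which read counts do not measure.

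These hairpins are shown because they are the known RNA control sites of both iron-regulated members. The longest protein-coding transcript of each gene in GENCODE vM21 was searched for the loop CAGTGN, with a C 6 bases before it and 5 pairable bases on each side (G with T allowed). Such an element was found in 1.24% of 21877 genes. Elements that depart from this pattern in loop or stem are missed by the search. Among the 9 genes, *Alas2* held 1 element in its 5′ UTR and *Tfrc* held 4 in its 3′ UTR. The *Alas2* element covers bases 84 to 113 of Alas2-201 and spans an intron, from chrX:150547458-150552150 on the plus strand of GRCm38. The *Tfrc* elements lie in Tfrc-201 on the plus strand at chr16:32631219-32631248, chr16:32631598-32631627, chr16:32631663-32631692 and chr16:32631710-32631739. Each is given 5′ to 3′ over 30 bases with the loop in capitals.
Alas2 5′ UTR element: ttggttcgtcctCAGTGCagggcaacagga
Tfrc 3′ UTR element at 32631219: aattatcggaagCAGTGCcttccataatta
Tfrc 3′ UTR element at 32631598: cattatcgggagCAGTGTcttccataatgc
Tfrc 3′ UTR element at 32631663: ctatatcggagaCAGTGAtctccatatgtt
Tfrc 3′ UTR element at 32631710: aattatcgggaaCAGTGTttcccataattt
The *Tfrc* elements share the bulged C and loop start with the *Alas2* element because the search required both. In the stem they differ from the *Alas2* element. Of the further heme and iron genes described at the end, 4 also held such an element, the ferritin genes *Fth1* and *Ftl1*, the iron exporter gene *Slc40a1* and *Bola3*.

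The values are gene counts that the authors divided by each library's size factor, called normalized counts here, and whole reads could be recovered from them. Where values of the libraries are given below, replicate 1 comes first and replicate 2 second. Listed genes had 24875746 and 14091054 reads for *Bptf* f/f, and 30134742 and 14104526 for *Bptf* cKO. *Bptf* was at 5520 and 5850 normalized counts in *Bptf* f/f and at 3398 and 3320 in *Bptf* cKO cells (limma adjusted p = 0.0439). The defining LSK genes were present in every library, with *Kit* at 13634 to 17051, *Cd34* at 12749 to 17892 and *Ly6a*, which encodes SCA-1, at 726 to 1743 normalized counts. The libraries differed in other markers beyond genotype. The summed level of 9 myeloid genes was 12564 in *Bptf* f/f replicate 2 and 47985 to 65851 in the other libraries, the summed level of 6 lymphoid genes was 13755 in *Bptf* f/f replicate 1 and 2239 to 4625 in the others, and that of 7 macrophage genes was 896 in *Bptf* cKO replicate 2 and 251 to 467 in the others.

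The genotypes were compared over the 14858 genes whose mean reached 10 normalized counts, with limma on log2 of the normalized count plus 1, two-sided, and p-values were adjusted over all of them. All 9 genes entered this test, *Alas2* only through its *Bptf* f/f libraries. None of the 9 passed an adjusted p of 0.05, where 0.740% of all tested genes did. At an unadjusted p under 0.05, *Alas2* and *Alad* passed, both lower in *Bptf* cKO, which is 2 of 9 genes against 15.7% of all tested genes in either direction. On the recovered reads, the quasi-likelihood test of edgeR also called 0 of 9 at an adjusted p of 0.05 (0.633% of all genes), and DESeq2 called 0 of the 8 to which it gave an adjusted p (5.85% of 13993 such genes), which leaves out *Alas2*. Under an unadjusted p of 0.05, edgeR put 2 of the 9 genes (15.7% of all genes) and DESeq2 also 2 (14.1% of all genes). The median log2 fold change of the 9 genes was -0.052, against 0.0010 over all tested genes. Without *Alas2*, the fold changes of the other 8 genes lay between 0.780 and 1.18. The labels state no pairing or separate origin beyond the pools, so p-values measure the spread between these libraries, and an exact two-sided permutation test of 2 against 2 libraries cannot give a p below 0.333.

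**Figure D1:**
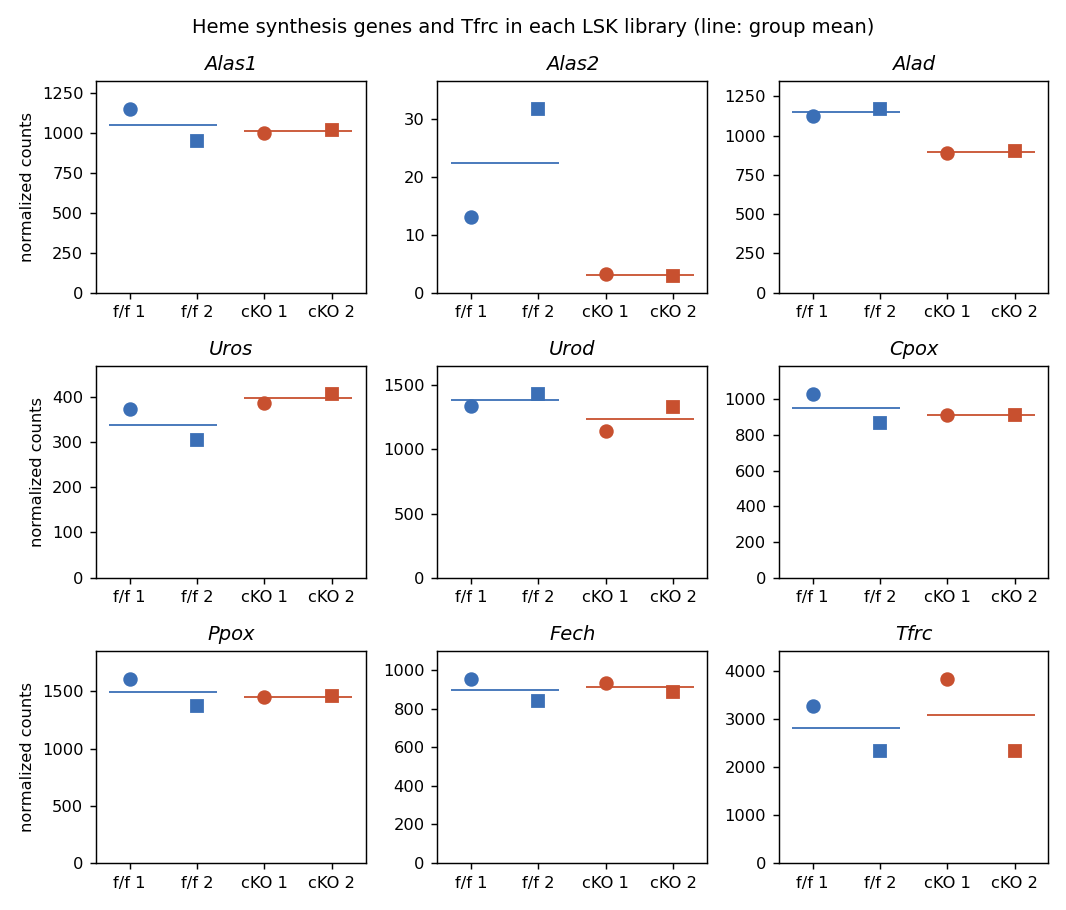
Normalized counts of each gene (y axis, from 0) in the 4 LSK libraries (x axis; blue, *Bptf* f/f; red, *Bptf* cKO; circles, replicate 1; squares, replicate 2), with horizontal lines at the group means. *Alas2* is at 13.2 and 31.9 in *Bptf* f/f and at 3.25 and 2.82 in *Bptf* cKO, whereas *Tfrc* separates by replicate number, not by genotype.

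*Alas1* (chr9:106233455-106248654, minus strand, GENCODE vM21), the housekeeping form of the rate-limiting enzyme, had 1155 and 955 normalized counts in *Bptf* f/f cells and 1003 and 1023 in *Bptf* cKO cells. Both *Bptf* cKO libraries lay between the *Bptf* f/f libraries. Group levels were 1055 ± 141 and 1013 ± 13.8 (SD, n = 2 each), a difference of -0.052 on the log2 scale (standard error 0.13, limma adjusted p = 0.907). The 95% interval of the fold change ran from 0.763 to 1.22.

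*Alas2* (chrX:150547375-150570638, plus strand), the erythroid form, was a low transcript in all 4 libraries. It had 17 and 23 reads in *Bptf* f/f cells and 5 and 2 reads in *Bptf* cKO cells. In normalized counts these are 13.2 and 31.9 in *Bptf* f/f, and 3.25 and 2.82 in *Bptf* cKO. Both *Bptf* cKO libraries lay below both *Bptf* f/f libraries, with group levels of 22.5 ± 13.2 and 3.04 ± 0.302 (SD, n = 2 each). The log2 fold change, -2.42 with a standard error of 0.70, did not pass (limma adjusted p = 0.208), with a 95% interval from -4.19 to -0.66, on a scale that understates the change of low genes. Against *Bptf* f/f replicate 1 alone the difference was -1.81, and against replicate 2 alone it was -3.03. From the summed reads, 40 in *Bptf* f/f and 7 in *Bptf* cKO, the level relative to depth was 6.38-fold lower in *Bptf* cKO, with an exact 95% interval from 2.83 to 16.9 that covers counting error only. Exons of *Apex2* on the opposite strand cover 12.9% of the annotated *Alas2* exon bases, and without stated strand information reads of both genes there cannot be told apart.

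*Alas2* was also a minor part of the ALAS transcripts. Levels of different genes were compared as normalized counts per kb of annotated exon. On this scale *Alas2* made up 2.85% and 7.90% of the sum of *Alas1* and *Alas2* in *Bptf* f/f cells. In *Bptf* cKO replicates 1 and 2 it made up 0.825% and 0.704%. The remaining share in every library was *Alas1*.

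Erythroid marker genes were lower in *Bptf* cKO as well. Of 15 genes in a list of globins, erythroid membrane proteins and erythroid regulators, 14 were listed in the table and 13 were tested. All 13 had a log2 fold change below 0, with a median of -2.06, and for 11 of them both *Bptf* cKO libraries lay below both *Bptf* f/f libraries, which was so for 23.8% of all tested genes. In limma 1 of the 13, *Epor*, the erythropoietin receptor, fell at an adjusted p of 0.05 (-1.96, standard error 0.24, adjusted p = 0.0443), where 0.740% of all tested genes passed in either direction, and 9 of 13 were lower at an unadjusted p under 0.05, as were 8.96% of all tested genes. At an adjusted p of 0.05, edgeR called 0 of them (0.633% of all tested genes) and DESeq2 called 7, all lower (5.85% of the 13993 genes to which it gave an adjusted p). The summed level of the list was 4736 and 3330 normalized counts in the *Bptf* f/f libraries and 1096 and 1252 in the *Bptf* cKO libraries. No marker was at 0 reads in a library except *Hba-a2*, an alpha-globin gene, in *Bptf* cKO replicate 1. In a bulk sample, fewer erythroid-primed cells and less RNA per cell cannot be told apart, and the part of these markers in the low *Alas2* of *Bptf* cKO cells was not tested.

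Within the *Bptf* f/f group, *Alas2* and most of these markers were ordered differently. *Alas2* was higher in replicate 2, as were all 4 globin genes of the list. The alpha-globin gene *Hba-a1* was at 45.0 and 52.7 normalized counts in *Bptf* f/f cells, from 58 and 38 reads. *Hba-a2* was at 6.98 and 12.5, from 9 and 9 reads, so the order of both alpha-globin genes rests on few reads. All 10 non-globin markers, which include *Klf1*, *Gata1*, *Epor* and *Car1*, were higher in replicate 1. *Klf1*, the erythroid Krüppel-like factor, for example, was at 367 and 143 normalized counts in *Bptf* f/f cells. The beta-globin gene *Hbb-bt* was at 147 and 499. In *Bptf* cKO replicates 1 and 2, *Klf1* was at 57.8 and 49.4 and *Hbb-bt* at 47.4 and 110.1 normalized counts.

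**Figure D2:**
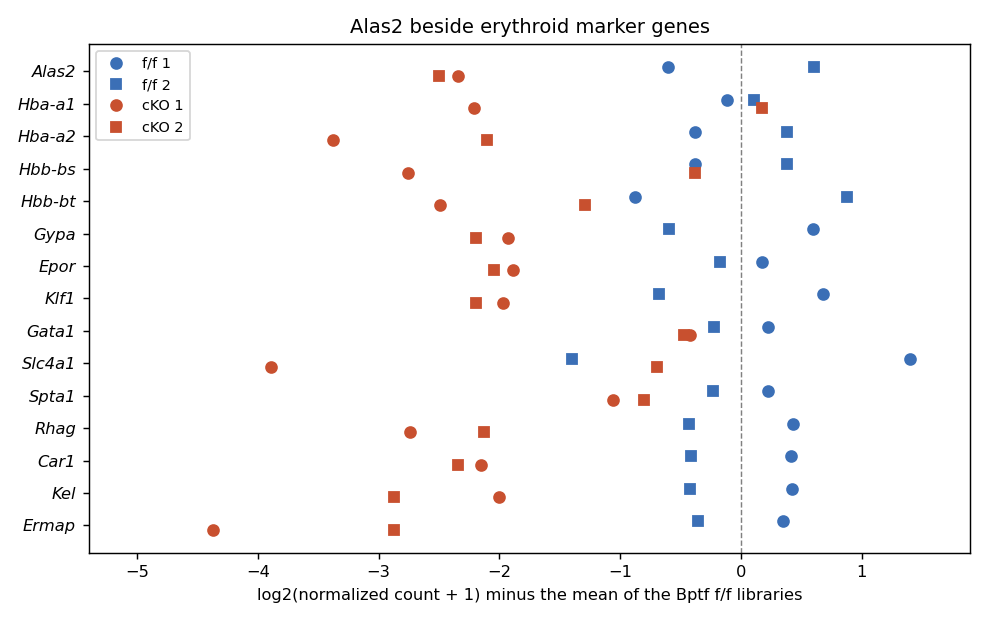
Level of *Alas2* and of 14 erythroid marker genes (rows) in each library, as log2 of the normalized count plus 1 minus the mean of the *Bptf* f/f libraries (x axis; blue, *Bptf* f/f; red, *Bptf* cKO; circles, replicate 1; squares, replicate 2). Most *Bptf* cKO points lie below 0. Among the *Bptf* f/f points *Alas2* and the 4 globin genes are higher in replicate 2, while the other 10 markers are higher in replicate 1. The order of *Alas2*, *Hba-a1* and *Hba-a2* rests on few reads.

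A motif bound by GATA factors, which are known to drive erythroid genes, was looked for in the RefSeq promoter windows (GRCm38.p6) of 250 bases before to 50 bases after each start. The letters searched were GATAA or GATAG preceded by A or T, and their reverse complements. Of all 32851 windows, 29.8% held at least 1 match. Windows were given for 8 of the 9 genes, all but *Fech*, and 3 of their 12 windows, those of *Alas2*, *Cpox* and 1 of *Uros*, held a match. Stretches of 150 bases are printed for *Alas2* and *Cpox* because both hold a match close to the start while their fold changes, -2.42 and -0.056 on the log2 scale, are unlike. The *Alas2* stretch is chrX:150547225-150547374, which ends at the last base before the GENCODE gene, and the *Cpox* stretch is chr16:58670058-58670207, both on the plus strand. Matches are in capitals, and the 2 in the *Cpox* stretch overlap. The *Cpox* window held 3 matches in all, of which the last lies just after the start and is not printed. The *Alas2* window held 1.
Alas2 promoter: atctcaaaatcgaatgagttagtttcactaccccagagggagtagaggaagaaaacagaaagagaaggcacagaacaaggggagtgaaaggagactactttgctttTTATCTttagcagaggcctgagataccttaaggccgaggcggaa
Cpox promoter: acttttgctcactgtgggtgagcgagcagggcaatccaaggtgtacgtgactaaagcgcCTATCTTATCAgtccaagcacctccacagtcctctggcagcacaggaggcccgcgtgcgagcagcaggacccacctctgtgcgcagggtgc
Binding of a factor to either stretch was not measured in these data.

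*Alad* (chr4:62509169-62519918, minus strand), whose enzyme joins aminolevulinate molecules into the pyrrole porphobilinogen, had 1125 and 1173 normalized counts in *Bptf* f/f cells. It had 890.4 and 900.2 in *Bptf* cKO cells. The groups did not overlap, and the gap between them was wider than the gap between libraries of either group. Group levels were 1149 ± 33.3 and 895 ± 6.92 (SD, n = 2 each), and the difference of -0.36 on the log2 scale (standard error 0.11) did not pass over all genes (limma adjusted p = 0.216). The 95% interval of the fold change ran from 0.647 to 0.939. Each library had at least 638 *Alad* reads.

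*Uros* (chr7:133686243-133710072, minus strand), whose enzyme closes the porphyrin ring, had 372 and 305 normalized counts in *Bptf* f/f and 386 and 406 in *Bptf* cKO cells. It was the only one of the 9 genes for which both *Bptf* cKO libraries lay above both *Bptf* f/f libraries, as they did for 23.2% of all tested genes. The log2 fold change, 0.23 with a standard error of 0.17, did not pass (limma adjusted p = 0.584). It was 0.090 without *Bptf* f/f replicate 2 and 0.38 without replicate 1, so its size rested on which control library was kept.

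*Urod* (chr4:116989965-116994413, minus strand), whose enzyme decarboxylates the ring, had 1336 and 1433 normalized counts in *Bptf* f/f and 1145 and 1328 in *Bptf* cKO cells. The groups did not overlap, but the highest *Bptf* cKO library and the lowest *Bptf* f/f library differed little. The log2 fold change, -0.17 with a standard error of 0.12, did not pass (limma adjusted p = 0.587). *Alas2*, *Alad* and *Urod* were thus the 3 of 9 genes for which both *Bptf* cKO libraries lay below both *Bptf* f/f libraries, against 23.8% of all tested genes. *Alas2* reached the mean of 10 only through its *Bptf* f/f libraries, so its place in this count is not independent of that filter.

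The last 3 enzymes, which work in mitochondria, showed the same arrangement as *Alas1*, with both *Bptf* cKO libraries between *Bptf* f/f replicate 1 above and *Bptf* f/f replicate 2 below. *Cpox* (chr16:58670292-58717636, plus strand), coproporphyrinogen oxidase, had 1030.1 and 868 normalized counts in *Bptf* f/f and 909.9 and 909 in *Bptf* cKO cells. *Ppox* (chr1:171275990-171281186, minus strand), protoporphyrinogen oxidase, had 1609 and 1372 in *Bptf* f/f and 1447 and 1460.3 in *Bptf* cKO cells. *Fech* (chr18:64452914-64490251, minus strand), ferrochelatase, which inserts the iron, had 953 and 839 in *Bptf* f/f and 933 and 885 in *Bptf* cKO cells. With *Alas1*, these 4 genes had log2 fold changes from -0.056 to 0.023 (standard errors 0.12 to 0.13) and limma adjusted p values from 0.895 to 0.958. Their 95% intervals lay within fold changes of 0.763 and 1.26. The differences between genotypes were smaller than those between the *Bptf* f/f libraries, and their signs turned with the control library left out. Exons of *B4galt3* on the opposite strand cover 17.5% of the *Ppox* exon bases, those of the antisense gene *4930500F10Rik* 7.53% of *Alas1*, and those of *Gpr15* 3.06% of *Cpox*.

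**Figure D3:**
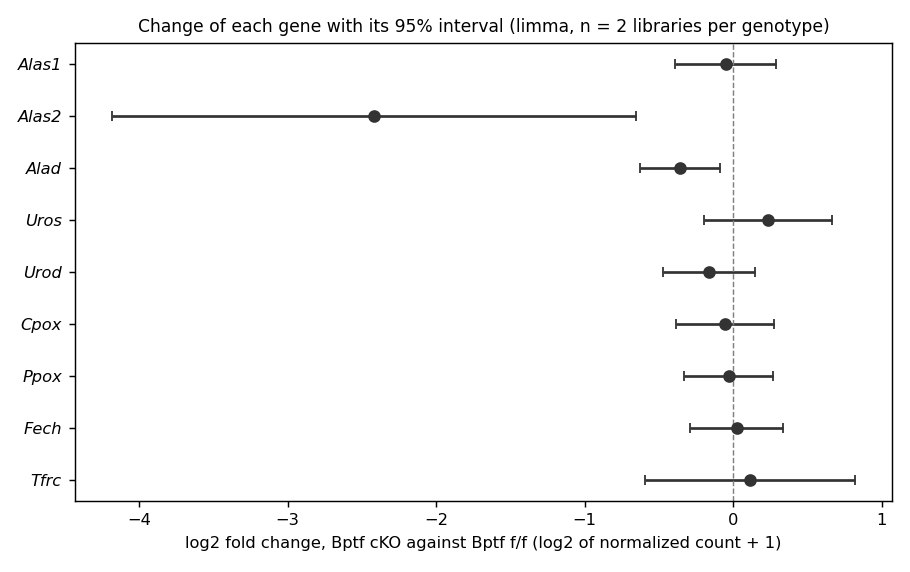
Log2 fold change of each gene in *Bptf* cKO against *Bptf* f/f LSK cells (x axis, log2 of the normalized count plus 1) with its 95% interval from limma (bars; n = 2 libraries per genotype). The intervals of *Alas2* and *Alad* lie below 0, that of *Alas2* from -4.19 to -0.66, and the other 7 include 0.

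*Tfrc* (chr16:32608920-32632794, plus strand), the transferrin receptor that carries iron into the cell, had the widest spread after *Alas2*, with a coefficient of variation of 25.1% over the 4 libraries, against 5.71% for *Fech*, the steadiest. It had 3287 and 2342 normalized counts in *Bptf* f/f cells and 3845 and 2342 in *Bptf* cKO cells. This transcript, in which the search above found 4 iron-responsive elements, was high in the replicate 1 libraries and low in the replicate 2 libraries of both genotypes. Group levels were 2815 ± 668 and 3094 ± 1063 (SD, n = 2 each), a difference of 0.11 on the log2 scale (standard error 0.28, limma adjusted p = 0.901). The 95% interval of the fold change ran from 0.662 to 1.77. The replicate 1 libraries were also the deeper ones in both genotypes, and the part of depth in this pattern was not tested. *Slc25a37*, which encodes the mitochondrial iron importer mitoferrin 1, was arranged alike, with 3666 and 2704 normalized counts in *Bptf* f/f and 3799 and 2763 in *Bptf* cKO cells.

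Per kb of annotated exon, *Alad* was the highest of the 9 genes in *Bptf* f/f cells, at 614 ± 17.8 normalized counts per kb (SD, n = 2). *Urod* followed at 534 ± 26.6 and *Tfrc* at 455 ± 108, and the libraries of these last 2 genes overlapped. *Ppox* was next at 330 ± 37.1 per kb, below both *Tfrc* libraries. *Alas1* stood at 171 ± 22.9 and *Cpox* at 142 ± 17.3 per kb, and their libraries touched, with the lowest *Alas1* and the highest *Cpox* value both at 155. *Uros* was at 94.7 ± 13.3, *Fech* at 64.7 ± 5.87 and *Alas2* at 9.37 ± 5.50 per kb, with no overlap between these 3. In *Bptf* cKO cells *Alad*, at 479 ± 3.70 per kb, lay within the range of *Urod*, at 477 ± 49.99, and of *Tfrc*, at 500.2 ± 172. The exon length counts every annotated exon of a gene, so genes with long alternative exons, such as *Fech* with 13.8 kb, come out low.

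**Figure D4:**
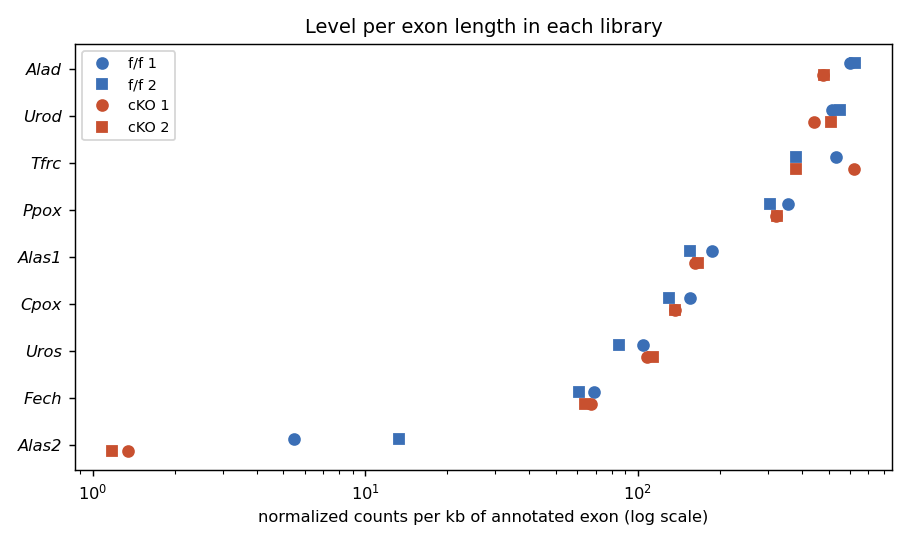
Normalized counts per kb of annotated exon (x axis, log scale) of each gene in the 4 libraries (blue, *Bptf* f/f; red, *Bptf* cKO; circles, replicate 1; squares, replicate 2), ordered by the *Bptf* f/f mean. *Alad*, *Urod* and *Tfrc* are at the top with *Bptf* f/f means of 614, 534 and 455, and *Alas2* is far below the rest at 9.37.

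By the Euclidean distance of their log2 levels, each centred on its own mean over the 4 libraries, the genes nearest to some of the 9 were looked up among 10815 genes whose mean reached 100. The nearest to *Alas1* were *Lgals9*, *Rsbn1* and *Pgd*, at distances of 0.021 to 0.028. Those of *Urod* were *Trp53bp2*, *Slc12a7* and *Gpatch11*, at 0.017 to 0.034, and those of *Tfrc* were *Wfs1*, *Rps23* and *Spata5l1*, at 0.038 to 0.071. The nearest to *Alas2* were *Fos*, *Dusp1* and *Ndn*, at 0.14 to 0.45, and none of these is on the erythroid list. *Fos*, a subunit of the AP1 complex, was at 16269 and 37418 normalized counts in *Bptf* f/f and at 4335 and 4312 in *Bptf* cKO cells. With 4 libraries many genes share a pattern, so these distances are a description.

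A list of 53 further heme and iron genes, grouped by role, places the 9 genes in their pathway. Of these, 51 were listed and tested, with a median log2 fold change of -0.079 against 0.0010 over all genes. None passed an adjusted p of 0.05 in limma or in edgeR, where 0.740% and 0.633% of all tested genes did. DESeq2 called 3 of them, against 5.85% of the 13993 genes to which it gave an adjusted p. Of the 3 called, 1, *Slc25a39*, was higher and 2, among them *Tfr2*, were lower. At an unadjusted p under 0.05 in limma, 4 were higher and 5 lower, which is 9 of 51 against 15.7% of all tested genes, and edgeR likewise gave 9. In 16 genes both *Bptf* cKO libraries lay below both *Bptf* f/f libraries and in 8 they lay above, against 23.8% and 23.2% of all tested genes.

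Iron import beyond *Tfrc* was described by 8 genes with a median log2 fold change of 0.012. *Tfr2*, the second transferrin receptor, an iron sensor of liver and erythroid cells, had 3950 and 3635 normalized counts in *Bptf* f/f and 2241 and 2657 in *Bptf* cKO cells. The groups did not overlap, and the log2 fold change, -0.63 with a standard error of 0.12, did not pass in limma (adjusted p = 0.101) and passed in DESeq2 (adjusted p = 0.00235). It was thus arranged by genotype, unlike *Tfrc*. *Hfe*, the hemochromatosis protein that partners transferrin receptors, had the highest log2 fold change of these genes, 0.35 (limma adjusted p = 0.589), with overlapping groups.

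Of the 6 genes of iron storage and export, all had a log2 fold change below 0, with a median of -0.13, and the groups overlapped for all 6. The highest was that of *Ncoa4*, the receptor that delivers ferritin to lysosomes, at -0.0054. The lowest was that of *Slc40a1*, the iron exporter ferroportin, at -0.62 (limma adjusted p = 0.623), with 254 and 189.9 normalized counts in *Bptf* f/f and 85.1 and 237 in *Bptf* cKO cells. *Hmox1*, heme oxygenase 1, had the highest log2 fold change of the 4 heme breakdown genes, 0.098 (limma adjusted p = 0.972). Its *Bptf* f/f libraries were at 144 and 248 and its *Bptf* cKO libraries at 91.6 and 446 normalized counts. Both genes are known to be high in iron-recycling macrophages, and both were higher in *Bptf* cKO replicate 2 than in replicate 1. The summed level of the 7 macrophage genes was 257 and 896 in *Bptf* cKO replicates 1 and 2. In *Bptf* f/f replicates 1 and 2 it was 251 and 467. There *Hmox1* was also higher in replicate 2, but *Slc40a1* was lower. The lineage-negative, SCA-1+ and c-KIT+ gate is meant to leave out mature cells, and the part of macrophages in these levels was not tested. *Blvrb*, biliverdin reductase B, had the lowest log2 fold change of the heme breakdown genes at -0.73 (standard error 0.27, limma adjusted p = 0.299), with 525 and 334 normalized counts in *Bptf* f/f and 222 and 286 in *Bptf* cKO.

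The 3 iron sensing genes lay close to 0, from -0.25 for *Fbxl5*, which degrades an iron regulatory protein, to 0.14 for *Aco1*, which encodes iron regulatory protein 1 (limma adjusted p = 0.452 and 0.602). Among 9 tested transporters of porphyrin, heme and glycine, the mitochondrial carriers *Slc25a39* and *Slc25a38* stood at opposite ends. *Slc25a39*, which carries glutathione into mitochondria, had 2351 and 2349 normalized counts in *Bptf* f/f and 3034 and 3241 in *Bptf* cKO cells. Its log2 fold change, 0.42 with a standard error of 0.093, did not pass in limma (adjusted p = 0.134) and passed in DESeq2 (adjusted p = 0.0278). *Slc25a38*, which supplies mitochondria with glycine for the ALAS step, had 535 and 446 normalized counts in *Bptf* f/f and 337 and 371 in *Bptf* cKO cells. Its log2 fold change, -0.47 with a standard error of 0.16, did not pass (limma adjusted p = 0.276). The groups did not overlap for either carrier.

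Of 14 genes of iron-sulfur cluster assembly, which draws on the same mitochondrial iron as FECH, 5 had a log2 fold change above 0 and 9 below 0, with a median of -0.12. *Iscu*, the scaffold on which clusters are built, had the highest value, 0.31 (limma adjusted p = 0.529). Among 6 genes that control ALAS or respond to heme, the mitochondrial protease *Lonp1* was highest at 0.36 (limma adjusted p = 0.247) and *Eif2ak1*, the heme-regulated eIF2alpha kinase, was lowest at -0.11 (limma adjusted p = 0.683).

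**Figure D5:**
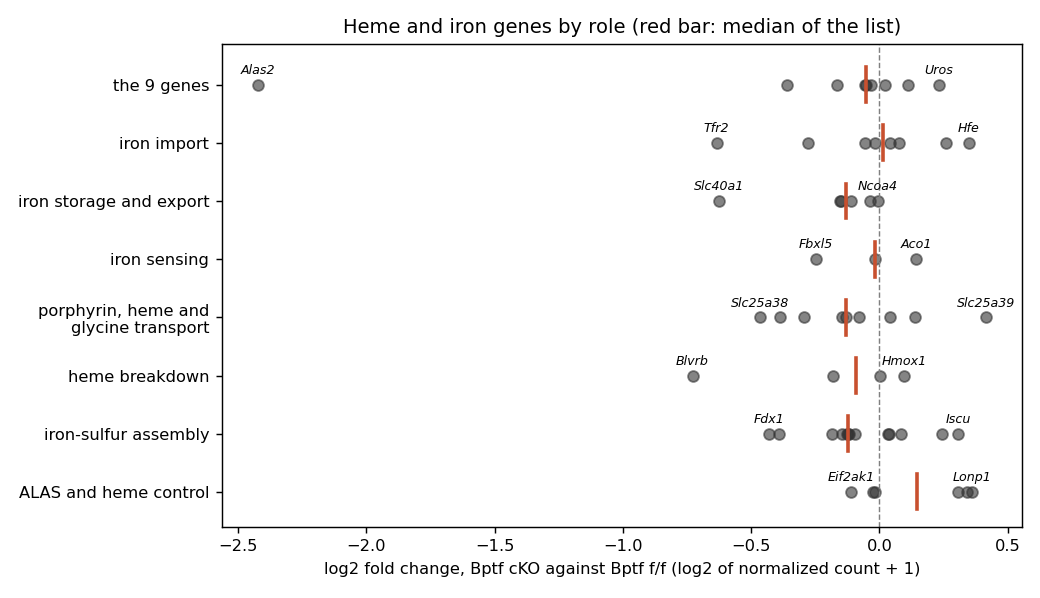
Log2 fold change of the 9 genes and of further heme and iron genes in *Bptf* cKO against *Bptf* f/f LSK cells (x axis; points are genes, red bars are list medians, and the lowest and highest plotted gene of each list is named). The medians lie between -0.13 and 0.15, and *Alas2* at -2.42 and *Blvrb* at -0.73 are the lowest points plotted.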

How the data were processed

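Total RNA of sorted LSK cells was sequenced in 2 *Bptf* f/f and 2 *Bptf* cKO libraries. Per the labels, the authors used HISAT2, featureCounts, DESeq2 and GRCm38 (mm10). Versions, annotation, strand setting and trimming are not given in the sources used here. The deposited signal is gene counts after division by each library's size factor, beside the mean of the libraries. The deposited log2 fold change with its error, the score (Wald statistic), and the p-value and adjusted p-value are the authors' own comparison and were not used. Every value (100%) was within 0.01 of a whole multiple of the library's smallest non-zero value, which gave whole reads. Listed genes had at least 11 reads in all.

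The test was limma 3.58.1 (run under R 4.3.3) with its trend option and genotype alone, pseudocount 1, mean of at least 10 and Benjamini-Hochberg adjustment. It was run on simulated data with no replicate effect and with large changes set only in genes far above the level of *Alas2*. How well it recovers changes of low genes was therefore not tested. Alternatives were edgeR 4.0.16 (quasi-likelihood, TMM) and DESeq2 1.42.0 on recovered reads, pseudocounts of 0.5 and 10, no filter, a mean of at least 50, median recentring, quantile normalization, no trend, an adjusted p under 0.01, the replicate block, and each library left out. Python 3.11.15 summarised the fits. The members, lists and tests were chosen with earlier results of these data known. Genes named beyond the 9 were the highest and lowest of each list by log2 fold change, any called in limma, and the 3 nearest in pattern to 4 members. *Slc25a37*, *Klf1*, *Hbb-bt*, *Car1* and *Gata1* and the overlapping genes were named after their values or positions were seen. Some genes of these lists count in the totals and medians but are not reported by name or plotted here.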

Additional observations from a re-analysis of the deposited data

How the results depend on the processing

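The count of called genes among the 9 stayed at 0 in all alternatives without the replicate block, and that among the 51 further genes at 0 except for 3 with DESeq2. Libraries with the same replicate number deviated together from their group means (r = 0.452 across 14858 genes, 0.638 across those with a mean of at least 100), but nothing states that the numbers mark a shared litter or day. With the replicate block, limma called 2 of the 9 (*Alad* and *Alas2*, adjusted p = 0.0386 and 0.0440) and 6 of the 51, and edgeR with the block called 2 and 5, while over all genes the limma count went from 110 to 2138 and was 2120 in edgeR with the block. Over all genes DESeq2 called 819, limma without the trend 2, and leaving out 1 library gave 1 to 123. An adjusted p under 0.01 left 7.

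Leaving out each library in turn left 0 of the 9 and 0 of the 51 called, and moved the log2 fold change of *Alas1* from -0.19 to 0.085, of *Cpox* from -0.18 to 0.068, of *Ppox* from -0.15 to 0.083, of *Fech* from -0.069 to 0.12 and of *Tfrc* from -0.24 to 0.47. *Ppox* was at 0.020 with libraries recentred on their medians, which shifted the median of all genes to 0.053. *Alas2*, *Alad*, *Urod* and *Uros* kept their sign wherever they were tested, with *Alas2* from -3.03 to -1.26, and *Alas2* had too few counts to be tested without *Bptf* f/f replicate 2 or at a mean of at least 50. *Alas2*, with 2 to 23 reads per library, is the gene that depth limits.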
